A study of Mus musculus with 16 samples.

Results

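The effect of depleting the long non-coding RNA RUS was compared between day 5 and day 7 of neural stem cell culture, gene by gene, to find which genes changed the direction or the size of their response. All 16 libraries of the series entered this comparison, 4 in each of 4 groups. The groups were ctrl on day 5, RUSKD on day 5, ctrl on day 7 and RUSKD on day 7. All cells were neural stem cells from cortices of C57BL/6 embryos at E15 to E16, which the study pooled from embryos of both sexes, and all received a lentiviral shRNA. The ctrl cells carried a scrambled shRNA and the RUSKD cells carried 1 shRNA against RUS, so any effect of that shRNA on other transcripts cannot be told apart from an effect of RUS. The cells were held in FGF2 and serum and were then moved to differentiation medium, the mitogen being withdrawn on day 5. Of 55471 lines in each day's expression table, 55365 matched by symbol and position, and 23789 genes averaging 0.1 TPM or more over the 16 libraries were tested.

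Cortical neural stem cells divide in the presence of FGF2 and leave the cell cycle when it is withdrawn, giving rise to neurons and to astrocytes, ependymal cells and oligodendrocytes. Cells that stop dividing usually need fewer new ribosomes, while young neurons build synaptic and axonal proteins. Long non-coding RNAs can act near their own locus or at distant genes, and a cell's response to losing one can differ with the stage at which it is lost. RUS lies on chromosome 3 and is listed in the tables as *Gm20754*.

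For each gene, the knockdown effect was the log2 ratio of RUSKD to ctrl within a day, and the day difference was the effect on day 7 minus the effect on day 5. A positive day difference means that RUSKD cells stood relatively higher on day 7 than on day 5. Values are scaled TPM, a transcript abundance per unit of transcript length and of library total, divided by 1 factor per library. A gene was called when its adjusted p in limma was below 0.05 over all 23789 genes. The tables of both days were deposited separately, so levels are compared between days only through each day's own ctrl cells. The labels do not say whether the 4 libraries of a group came from separate cultures, and p-values then measure only the spread between these libraries. The number of reads behind each value is unknown. From 25529 to 29039 genes stood above 0 TPM in a library, and the correlation of libraries within a group ran from 0.969 to 0.981. RUSKD replicate 4 of day 5 lay furthest from its group, with a root mean square deviation of 0.374 on the log2 scale against 0.277 to 0.352 in the other libraries. Values without it are given where leaving it out moved a list's count of day differences or of reversals by over 1.5 times to 3 or more. Counts of calls within day 5 also moved in several lists, and most of these are not given.

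The targeted RNA was at the edge of detection, and no difference of its knockdown effect between the days was detected. *Gm20754* (chr3:73066316-73594830, + strand, GRCm38) stood at 0.235, 0.117, 0.185 and 0.167 scaled TPM in the ctrl libraries of day 5 and at 0.0592, 0, 0.139 and 0.345 in the RUSKD libraries. On day 7 it stood at 0.653, 0.661, 0.238 and 0.506 in ctrl and at 0.5, 0.348, 0 and 0.0364 in RUSKD. The groups overlapped on both days, and RUSKD replicate 4 of day 5 was above every ctrl library of that day. The difference of the mean effects was −0.253 scaled TPM (two-sided exact permutation test over 4900 arrangements, p = 0.212), and −0.184 without that replicate (exact permutation, p = 0.358). Limma gave a day difference of −0.82 (SE 0.78, adjusted p = 0.465). At these levels the tables do not show depletion of RUS in each library labelled RUSKD.

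The knockdown effect differed between the days for 29.8% of the genes tested. Of these 7090 genes, 3626 (15.2% of those tested) had a positive day difference and 3464 (14.6%) a negative one, and the median size was 0.544 on the log2 scale. True reversals were the smaller share. A total of 497 genes (2.09%) were called higher in RUSKD on day 5 and lower on day 7, and 312 genes (1.31%) were called lower on day 5 and higher on day 7. Effects that kept their direction and were larger on day 7 were found for 1313 genes (5.52%), of which 677 were higher and 636 lower in RUSKD, and those that were smaller on day 7 for 299 genes (1.26%). A called day difference with a call on day 7 only was seen for 2927 genes (12.3%), and with a call on day 5 only for 1511 genes (6.35%). Another 231 genes had a called day difference with no call on either day. Each day on its own, RUSKD stood higher for 16.6% and lower for 21.2% of genes on day 5, and for 21.8% and 25.8% on day 7. The classes are counts of calls, and the plot of both effects shows that they are cut out of a continuous cloud.

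**Figure D1:**
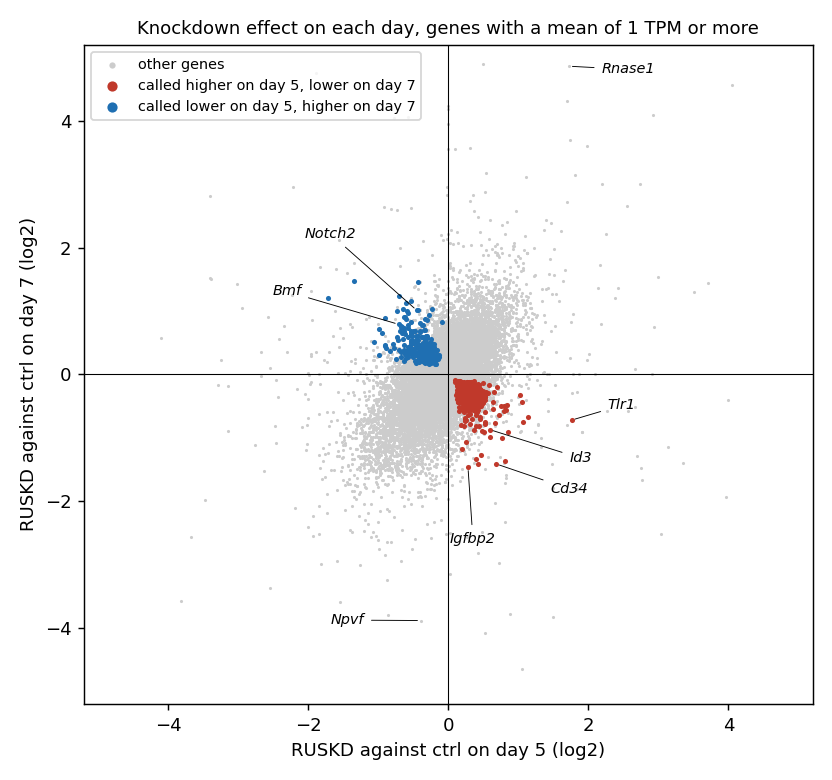
Knockdown effect (log2 ratio of RUSKD to ctrl) on day 5, horizontal axis, against day 7, vertical axis, for the 15899 genes averaging 1 TPM or more, 1 point per gene; 2 genes lie outside the axes. Red points are genes called higher on day 5 and lower on day 7, blue points genes called lower on day 5 and higher on day 7, and most of both lie within 1 log2 unit of the origin, with Tlr1, Cd34, Igfbp2 and Notch2 further out.

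The split between the directions depends on how the libraries are scaled. The factors ran from 0.845 to 0.928 in RUSKD on day 5, from 0.943 to 1.02 in ctrl on day 5 and from 1.07 to 1.1 on day 7. With TPM as deposited, the median over all genes became −0.2 on day 5, −0.02 on day 7 and 0.19 for the day difference, against −0.06, −0.04 and 0.04 with the factors. Then 5700 genes had a positive and 2053 a negative day difference, and the reversals became 186 from higher to lower and 674 from lower to higher. With TPM as deposited, 458 of the 497 and all 312 genes kept a called day difference of the same sign, and none had a called one of the other sign, while 177 and 293 of them were still reversals. Without RUSKD replicate 4 of day 5 the reversals numbered 772 and 582, in the same order.

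The day difference also followed transcript length, over the whole table. Among genes averaging 1 TPM or more, transcripts of 500 to 1000 nucleotides had a median effect of 0.06 on day 5 and −0.15 on day 7, and transcripts over 6000 nucleotides had −0.19 and 0.13. Of the genes in the shorter of these classes 7.03% were reversals from higher to lower and 0.841% from lower to higher, while in the longer class the shares were 0.13% and 4.94%. Across 15666 genes, which share these 16 libraries and are not replicates, Spearman's rho of the day difference with length was 0.335. Coding transcripts that reversed from higher to lower had a median length of 1100 nucleotides (462 genes), those that reversed from lower to higher 3395 (239 genes), and those with no called day difference 2205 (9590 genes). After a smooth trend on length was taken out of each library, a step that removes any difference tied to length whatever its source, 439 and 227 reversals were found. Of the reversals with a known length, 481 of 493 from higher to lower and 288 of 306 from lower to higher then kept a called day difference of the same sign, while 296 and 179 were still called in opposite directions on the days and so still reversals. The part that RNA quality or library preparation has in the length trend was not tested. Values with length taken out are given below beside many of the gene lists.

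**Figure D2:**
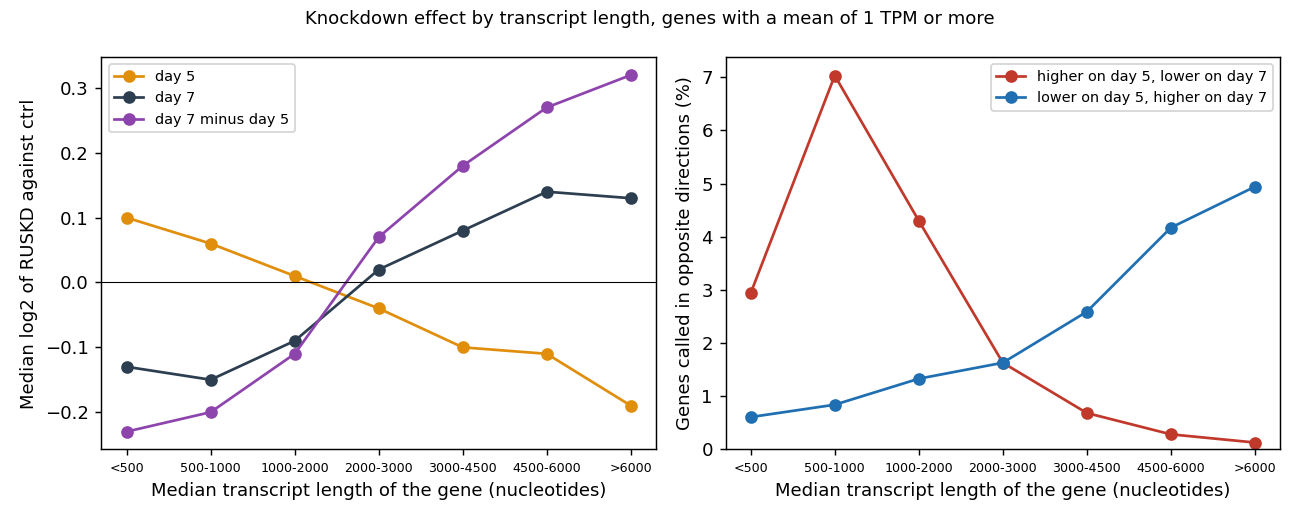
Median knockdown effect (log2) on day 5 and day 7 and median day difference, and share of genes that reversed in each direction (percent), by transcript length class in nucleotides, for genes averaging 1 TPM or more. Short transcripts are higher on day 5 and lower on day 7 in RUSKD, long transcripts the other way round.

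Genes of protein synthesis, respiration and protein breakdown had almost only negative day differences, and many were called higher in RUSKD on day 5 and lower on day 7. Of 79 cytosolic ribosomal protein genes, which encode the subunits of the ribosome that translates nuclear messages, 77 had a negative day difference, none a positive one, and 31 reversed. Their median effect was 0.30 on day 5 and −0.26 on day 7, giving a median day difference of −0.55 where all genes had 0.04. RUSKD was called above ctrl for 61 and below it for 2 of these genes on day 5, and above it for none and below it for 46 on day 7. The day 5 counts were 13 and 6 under quantile normalization, with a median effect of 0.05. They were 32 and 5 with TPM as deposited, 38 and 2 with 75th percentile scaling and 66 and 2 with length taken out. The 48 genes of the large subunit and the 31 of the small subunit had similar values, with median day differences of −0.54 and −0.55. Ribosomal protein genes have many processed pseudogenes, so how the reads were shared out could affect their levels. Of 22 genes of ribosome biogenesis and Myc, 3 had a positive and 2 a negative day difference (22.7%, against 29.8% of all genes), or 5 and none with TPM as deposited and 4 and 4 with length taken out, and 14 were called lower on each day. *Nop58*, a core protein of box C/D snoRNPs, fell by 0.55 on day 5 and by 0.87 on day 7, a day difference that 5 of 30 settings lost. *Mycn* (day difference 0.57) and *Polr1b* (0.43) were among the positive genes and kept their calls in every setting.

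*Rps3*, a protein of the small subunit near the messenger RNA entry site, stood at 587, 657, 593 and 660 scaled TPM in ctrl on day 5 and at 758, 727, 758 and 686 in RUSKD. The day 7 libraries gave 577, 559, 542 and 506 in ctrl and 447, 424, 413 and 415 in RUSKD. The groups did not overlap on either day, RUSKD lying above ctrl on day 5 and below it on day 7. The day difference was −0.59 (SE 0.076, adjusted p = 5.43e-05). *Rpl37a*, of the large subunit, changed from 0.47 on day 5 to −0.30 on day 7, and *Rps6*, the ribosomal protein phosphorylated by S6 kinase, from 0.24 to −0.15. *Rplp0*, the stalk protein often used as a reference gene, was higher on day 5 only (0.44) and stood at 0.02 on day 7. *Rpl22l1*, a paralogue of *Rpl22*, was 1 of 2 genes of the large subunit called lower on both days (−0.19 and −0.86).

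Many ribosomal protein messages start with a run of pyrimidines, the 5′ TOP motif, through which their translation follows mTOR activity. Among the tested genes with a promoter window in RefSeq (13783 genes, GRCm38.p6), 17.8% had a run of a C and at least 4 further pyrimidines that began between 4 bases before the annotated start and base 5 of the transcript, and 28 of 58 ribosomal protein genes (48.3%) had one. The share was 24.3% among genes that reversed from higher to lower and 17.5% among those that reversed from lower to higher. The next 4 windows, from 50 bases before to 20 after the start, are shown because they hold the motif in genes that reversed; their genes were singled out after the values were seen. The capitals mark the pyrimidines from the first C within those limits, and more pyrimidines can stand before them, as in *Rpl35*, whose run begins further upstream. They lie at chr16:33056432-33056501 (+), chr2:39005112-39005181 (−), chr14:18270967-18271036 (−) and chr11:114668530-114668599 (+), in this order.
Rpl35a: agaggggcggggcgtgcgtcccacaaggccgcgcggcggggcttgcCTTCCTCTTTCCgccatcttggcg
Rpl35: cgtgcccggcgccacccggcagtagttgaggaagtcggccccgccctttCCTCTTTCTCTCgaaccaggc
Rpl15: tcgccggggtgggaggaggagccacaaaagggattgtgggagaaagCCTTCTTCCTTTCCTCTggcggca
Rpl38: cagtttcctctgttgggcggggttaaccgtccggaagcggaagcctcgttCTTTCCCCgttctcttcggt

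*Rpl35a* had a mean of 585 ± 56.7 scaled TPM (SD, n = 4) in ctrl and 681 ± 48.8 in RUSKD on day 5, and 517 ± 23.4 and 398 ± 9.02 on day 7. *Rpl35* had 497 ± 40.9 and 648 ± 75.3 on day 5, and 411 ± 26.4 and 333 ± 17.6 on day 7. Their day differences were −0.60 and −0.68, and those of *Rpl15* and *Rpl38* were −0.55 and −0.70, a direction that the choice of genes fixed. Under quantile normalization *Rpl15* had −0.14 and was not called (adjusted p = 0.0974). A match to these letters is a description of the window and no sign of a regulator.

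The nuclear genes of oxidative phosphorylation, the chain of complexes that makes ATP in mitochondria, also had almost only negative day differences. Of 80 genes a negative day difference was called for 71, a positive one for none, and 29 reversed. The median effect was 0.31 on day 5 and −0.33 on day 7. Every complex took part: 33 of 36 genes of complex I, 13 of 14 of complexes II and III, 10 of 14 of complex IV and 15 of 16 of the ATP synthase had a negative day difference, with 11, 4, 6 and 8 reversals. *Cox7c*, a small subunit of cytochrome c oxidase, stood at 475, 548, 495 and 570 scaled TPM in ctrl and at 678, 674, 669 and 572 in RUSKD on day 5. By day 7 the values were 416, 406, 407 and 367 in ctrl and 285, 278, 280 and 268 in RUSKD. RUSKD was above ctrl on day 5, where replicate 4 of RUSKD came close to the highest ctrl library, and below it on day 7, and the day difference was −0.84 (SE 0.093, adjusted p = 1.58e-05). *Ndufa1*, an accessory subunit of complex I, changed from 0.40 to −0.53. *Cox6b2*, known as the testis form of a complex IV subunit, was lower on both days (−0.25 and −1.72).

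Windows of 3 genes from this group are printed because they hold elements known for respiratory genes, again singled out after the values were seen. The capitals mark GCGCA followed by TGCGC, the palindromic element bound by NRF1, in *Atp5g2* (chr15:102671028-102671097, −) and *Atp5k* (chr5:108434380-108434449, −), and the reverse complement of AAGATGG, the core of the YY1 element, in *Cox7c* (chr13:86046776-86046845, −).
Atp5g2: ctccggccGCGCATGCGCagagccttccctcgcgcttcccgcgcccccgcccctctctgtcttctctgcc
Atp5k: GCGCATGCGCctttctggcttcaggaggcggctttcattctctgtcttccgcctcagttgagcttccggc
Cox7c: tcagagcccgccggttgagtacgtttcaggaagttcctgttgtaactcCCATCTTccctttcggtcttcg

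On either strand, within the RefSeq window of 250 bases before to 50 after the start, the NRF1 palindrome was found in 5 of 66 respiratory genes (7.58%) and in 1.87% of all tested genes. AAGATGG was found in 16.7% of respiratory, 17.2% of cytosolic ribosomal, 18.8% of mitochondrial ribosomal and 21.4% of proteasome genes, against 7.58% of all. CCGGAAGT, a site of the ETS family, was found in 13.9% of the genes that reversed from higher to lower and in 6.16% of those that reversed the other way, against 7.3% of all. *Atp5g2*, which encodes the ring subunit c of the ATP synthase, had effects of 0.34 and −0.32, and *Atp5k*, its subunit e, 0.40 and −0.33.

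Transcripts of the mitochondrial genome held no called negative day difference. Of 13, only *mt-Atp8* had a called day difference (1.08, SE 0.38, adjusted p = 0.0412), in the other direction, and 17 of 30 alternative settings lost that call. *mt-Nd2* (0.38, adjusted p = 0.0529) was called in 10 of the 30. In the list 3 genes were positive without RUSKD replicate 4 of day 5, 4 with TPM as deposited and 5 under quantile normalization, and with length taken out 2 were, with a median day difference of 0.29 in place of 0.11. The summed level of the 13 ran from 61700 to 73400 scaled TPM in ctrl and from 54700 to 71000 in RUSKD on day 5, and from 64500 to 80800 and 69500 to 81200 on day 7, with overlap on both days. Mitochondrial ribosomal proteins are encoded by nuclear genes, of which 67 of 78 had a negative day difference, 14 reversed, and the median went from 0.18 to −0.28. *Mrpl24* stood at 112, 115, 115 and 110 scaled TPM in ctrl and at 133, 133, 132 and 117 in RUSKD on day 5, and at 119, 117, 117 and 112 in ctrl and 90.3, 89.3, 91.2 and 91.0 in RUSKD on day 7. RUSKD lay above every ctrl library on day 5 and below every one on day 7.

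The proteasome, which degrades ubiquitinated proteins, was lower in RUSKD on day 7 for most subunits. Of 35 genes 29 had a negative day difference and 11 reversed, and the median effect was 0.10 on day 5 and −0.36 on day 7. A negative day difference was called for 14 of 15 genes of the core barrel and 15 of 20 of the regulatory cap. *Psmb6*, a catalytic subunit of the core, stood at 329, 371, 341 and 393 scaled TPM in ctrl and at 474, 473, 485 and 386 in RUSKD on day 5. Ctrl libraries of day 7 stood at 398, 357, 363 and 348, and RUSKD libraries at 261, 259, 259 and 242. The day 5 groups overlapped through RUSKD replicate 4 only, and the day difference was −0.86 (SE 0.10, adjusted p = 2.99e-05). *Psmd2*, a large subunit of the cap, was lower on both days (−0.16 and −0.57).

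These group values change in size, and not in the sign of the median day difference, with the scaling and the libraries used. After length was taken out, a negative day difference was called for 66 ribosomal protein, 65 respiratory, 59 mitochondrial ribosomal and 29 proteasome genes, with 16, 20, 9 and 8 reversals. With TPM as deposited, 66, 63, 48 and 24 were negative and 13, 19, 6 and 5 reversed, while 2 proteasome genes were positive. Under quantile normalization 31, 56, 63 and 30 were negative, 3, 11, 10 and 5 reversed, and the median day differences were −0.18, −0.39, −0.43 and −0.27. The median effect of the proteasome genes on day 5 was −0.03 under it and −0.06 with TPM as deposited, both below 0. Without RUSKD replicate 4 of day 5, 50 ribosomal protein, 43 respiratory, 30 mitochondrial ribosomal and 15 proteasome genes reversed. The median lengths of these lists were 696, 645, 1052 and 1304 nucleotides, all under that of genes with no called day difference.

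**Figure D3:**
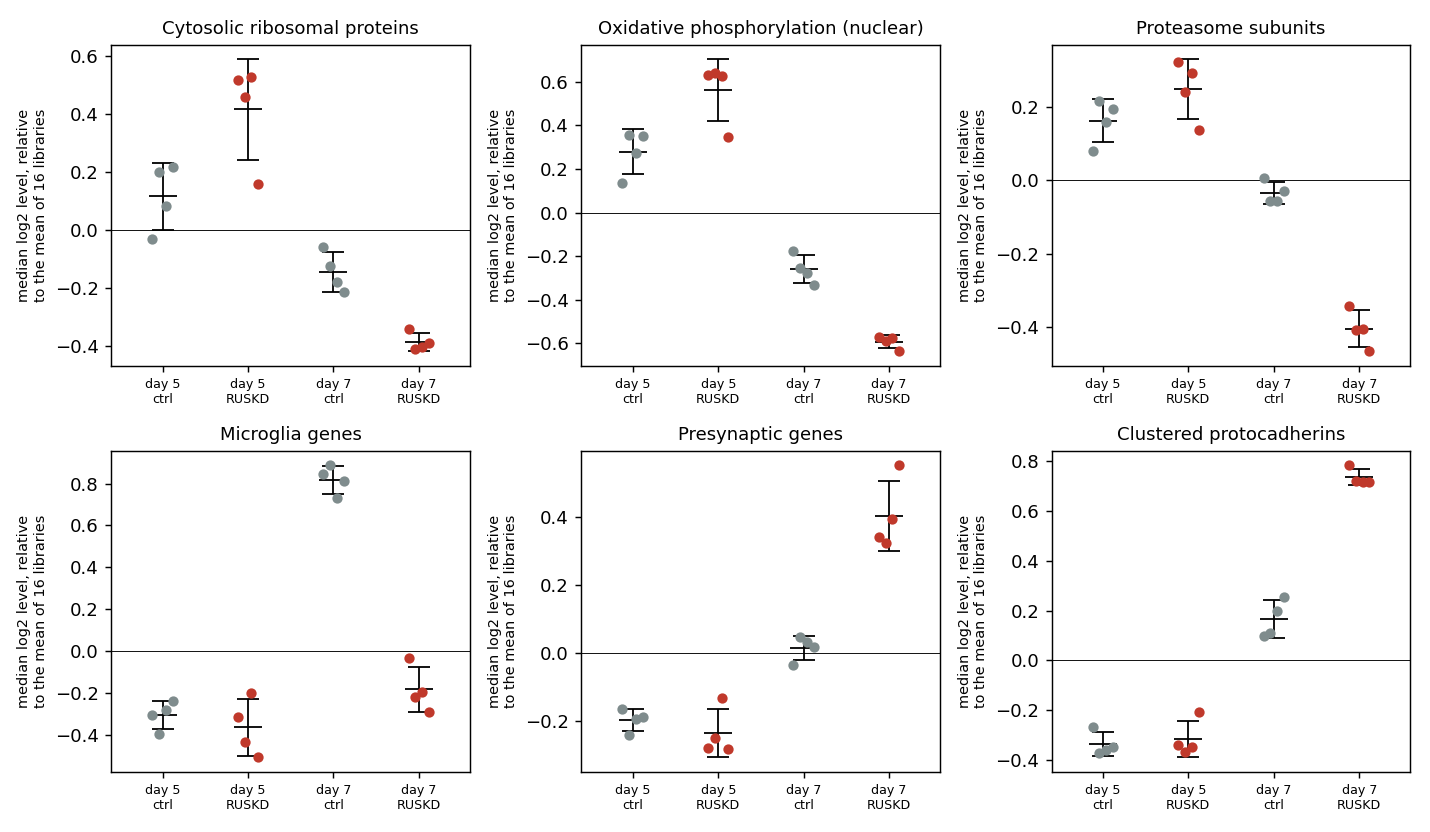
Median level of each gene list in every library, on a log2 scale relative to the mean of the 16 libraries, for 6 lists; points are libraries, grey for ctrl and red for RUSKD, and bars are the mean ± SD of 4. In the ribosomal, respiratory and proteasome lists RUSKD replicate 4 lies among the ctrl libraries on day 5 and the rest of RUSKD lies above them, while on day 7 all RUSKD libraries lie below ctrl.

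Enzymes of glucose metabolism and of detoxification also had more negative than positive day differences. Of 12 glycolysis genes 8 had a negative and 1 a positive day difference, with reversals of *Pgk1* (0.14 to −0.44) and *Ldha* (0.16 to −0.55), while *Gapdh* (0.10 and −0.55) and *Eno1* (0.03 and −0.83) were called on day 7 only. Of 12 hypoxia genes 3 were positive and 3 negative. Over these 24 genes reversals from higher to lower numbered 2, none with TPM as deposited, under quantile normalization or under 75th percentile scaling, and 4 with length taken out or without RUSKD replicate 4 of day 5. Of 24 antioxidant, glutathione and metallothionein genes 13 had a negative and 4 a positive day difference and 4 reversed from higher to lower. Under quantile normalization 8 were negative and 2 so reversed, with a median day difference of −0.09 in place of −0.36, and without RUSKD replicate 4 of day 5 so did 7. *Gstm1*, a glutathione transferase, stood at 2900, 2960, 3080 and 2840 scaled TPM in ctrl and at 4070, 4270, 4260 and 3570 in RUSKD on day 5. Values on day 7 were 1200, 1100, 1110 and 1200 in ctrl and 799, 828, 866 and 826 in RUSKD. The groups were apart on both days in opposite order, and the day difference was −0.93 (SE 0.081, adjusted p = 3.05e-06). *Hmox1*, the heme oxygenase induced by oxidative stress, went against its list, being higher on both days (0.62 and 1.15).

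In the list of the unfolded protein and integrated stress response, 10 of 27 genes had a negative and 2 a positive day difference. That is 44.4%, against 29.8% of all genes. The balance turned to 5 negative and 8 positive with TPM as deposited and was 6 and 4 under quantile normalization. Of the enzymes that supply amino acids, *Asns* was lower on both days (−0.40 and −0.97) and *Psat1* reversed (0.14 to −0.42). *Trib3*, a pseudokinase induced by ATF4, was lower on day 7 only (−1.43). *Sesn2*, which restrains mTORC1, was higher on both days and more so on day 7 (0.25 and 0.84). Of 23 cholesterol synthesis genes 5 were negative and 1 positive (26.1%, near the 29.8% of all genes), with a median day difference of −0.04, and with TPM as deposited 1 was negative and 6 positive (median 0.13). *Sqle*, squalene epoxidase, fell by 0.14 on day 5 and by 0.51 on day 7.

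The largest single reversals from higher to lower were of genes with varied roles at the cell surface, in signalling and in metabolism. The 8 with the largest day difference, named by that size, were *Tlr1*, *Hs3st6*, *Cd34*, *Grap*, *Col9a1*, *Inmt*, *Igfbp2* and *Hdc*, from −2.48 to −1.73. *Tlr1* (chr5:64924679-64933563), a toll-like receptor for bacterial lipopeptides, stood at 0.412, 0.69, 0.7 and 0.459 scaled TPM in ctrl and at 2.37, 2.19, 2.05 and 1.85 in RUSKD on day 5. On day 7 it stood at 2.41, 2.08, 2.27 and 2.37 in ctrl and at 1.36, 1.68, 1.38 and 1.03 in RUSKD. RUSKD lay above every ctrl library on day 5 and below every one on day 7. The effects were 1.76 and −0.72 (day difference −2.48, SE 0.24, adjusted p = 5.3e-06).

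*Cd34* (chr1:194938819-194961279), a sialomucin of progenitor cells, stood at 8.36, 8.88, 8.99 and 8.7 in ctrl and at 15, 13.2, 14.4 and 13.8 in RUSKD on day 5. The day 7 libraries gave 2.56, 2.93, 2.7 and 3.17 in ctrl and 1.03, 1.09, 1.21 and 0.737 in RUSKD. RUSKD was higher than every ctrl library on day 5 and lower than every one on day 7, and the day difference was −2.10 (SE 0.16, adjusted p = 9.39e-07). An exon of *Gm16897* on the opposite strand overlaps this gene, and whether the counting used strand is not given in the sources used here. *Igfbp2* (chr1:72824503-72852474), an abundant binding protein for insulin-like growth factors, stood at 3030, 3520, 3440 and 3550 in ctrl and at 4000, 4430, 4630 and 3420 in RUSKD on day 5, where the groups overlapped. By day 7 the values were 597, 562, 581 and 538 in ctrl and 192, 224, 229 and 185 in RUSKD, with no overlap. Most of its day difference of −1.74 (SE 0.13, adjusted p = 6.88e-07) came from the drop on day 7, since the effects were 0.28 and −1.46.

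The other large reversals were of lower level. *Hs3st6*, a heparan sulfate sulfotransferase, changed from 0.81 to −1.37, *Grap*, a GRB2-related adaptor, from 1.14 to −0.67, and *Col9a1*, a collagen chain, from 0.76 to −1.01. *Inmt*, an amine methyltransferase, changed from 0.85 to −0.90 and *Hdc*, histidine decarboxylase, from 0.39 to −1.34. All 8 kept their called day difference and its sign in every alternative setting.

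*Id3*, an inhibitor of proneural bHLH factors and the only reversal among 24 stem cell and radial glia factors, stood at 197, 255, 242 and 269 scaled TPM in ctrl and at 374, 417, 408 and 265 in RUSKD on day 5. Ctrl libraries of day 7 stood at 217, 220, 215 and 187, and RUSKD libraries at 115, 121, 116 and 105. On day 5 replicates 1 to 3 of RUSKD lay above ctrl and replicate 4 lay within it, while on day 7 all 4 lay below. The day difference was −1.46 (SE 0.18, adjusted p = 3.16e-05). In the stem cell list 9 genes had a negative and 4 a positive day difference, or 11 and 2 with length taken out. *Prom1*, the surface protein CD133, was lower on day 7 only (−1.02), *Hopx*, a radial glia marker, was lower on both days and more so on day 7 (−0.40 and −1.08), and *Nes*, the intermediate filament nestin, had −0.87 and −1.21. *Sox1* was lower on day 5 only (−0.50), and *Sox2* (day difference 0.14, adjusted p = 0.472) and *Pax6* (−0.06, adjusted p = 0.475) were not called.

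**Figure D4:**
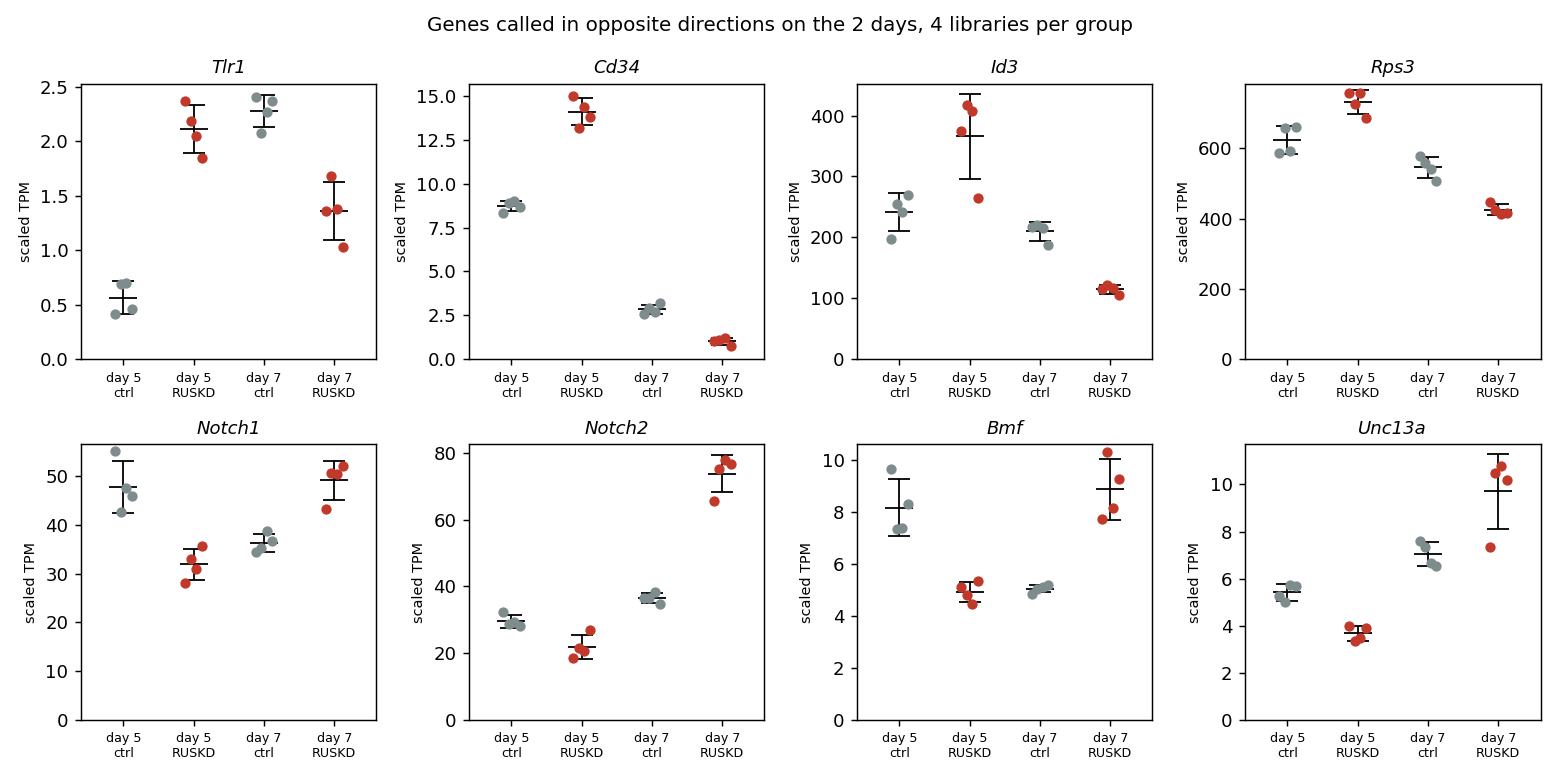
Scaled TPM in every library for 8 genes that reversed (Tlr1, Cd34, Id3, Rps3, Notch1, Notch2, Bmf and Unc13a), in ctrl and RUSKD on day 5 and day 7; points are libraries, and bars are the mean ± SD of 4. In the first 4 genes RUSKD lies above ctrl on day 5 and below it on day 7, and in the last 4 the order is the reverse, with overlapping libraries in Id3 on day 5 and Unc13a on day 7.

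The largest reversals from lower to higher included zinc finger genes, the Notch receptor *Notch2* and the death gene *Bmf*. The Notch receptors are cleaved on contact with a ligand, and their intracellular part then turns on *Hes* and *Hey* genes that keep progenitors undifferentiated. Of 4 receptors, *Notch1* and *Notch2* reversed and the others had no called day difference. *Notch2* (chr3:98013527-98150361) stood at 32.2, 28.7, 29.2 and 28.0 scaled TPM in ctrl and at 18.5, 21.4, 20.5 and 26.9 in RUSKD on day 5. Values on day 7 were 36.4, 36.5, 38.3 and 34.7 in ctrl and 65.5, 75.2, 78.0 and 76.7 in RUSKD. All RUSKD libraries were under all ctrl libraries on day 5, and above all of them on day 7. The effects of −0.45 and 1.01 gave a day difference of 1.46 (SE 0.13, adjusted p = 3.24e-06).

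*Notch1* (chr2:26457903-26516663) stood at 55.2, 42.7, 47.5 and 46.0 in ctrl and at 28.1, 33.1, 31.0 and 35.6 in RUSKD on day 5. On day 7 it stood at 34.5, 35.3, 38.8 and 36.8 in ctrl and at 43.2, 50.7, 50.5 and 52.2 in RUSKD. The order of the groups turned with no overlap on either day, and the day difference was 1.01 (SE 0.12, adjusted p = 2.96e-05). Of 24 genes of the pathway 6 were positive and 2 negative (33.3%, near the 29.8% of all genes), and outside the receptors none reversed. Of 5 ligands 1 had a called day difference, *Dll4*, which was higher on day 7 only (0.15 and 1.20) and falls outside the naming rule, and *Dll1* was lower on both days without one (−0.41 and −0.33, adjusted p = 0.62). Of 7 effectors 1 was positive and 2 were negative (42.9%, against 29.8% of all genes). *Hes1* was lower on both days, less so on day 7 (−1.31 and −0.80), a day difference whose adjusted p of 0.0376 was lost in 15 of 30 settings. *Hey1* was lower on day 7 only (−0.36), and *Hey2* was higher on both days, more so on day 5 (1.12 and 0.63). Exons of other genes overlap *Notch1* and *Notch2*.

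*Bmf*, a BH3-only death gene named for its rank among the upward reversals, which is held at the cytoskeleton until cells are stressed, stood at 9.65, 7.33, 7.36 and 8.31 scaled TPM in ctrl and at 5.1, 4.8, 4.46 and 5.34 in RUSKD on day 5. The day 7 libraries gave 4.85, 5.04, 5.11 and 5.19 in ctrl and 7.72, 10.3, 8.16 and 9.25 in RUSKD. RUSKD was below every ctrl library on day 5 and above every one on day 7 (day difference 1.5, SE 0.14, adjusted p = 5.13e-06). *Bcl2l11*, which encodes Bim, went from −0.35 to 0.50. *Foxo3*, a transcription factor known to activate *Bcl2l11*, did not reverse and was higher on both days, at 34.3, 33.1, 34.3 and 33.9 in ctrl against 42.4, 48.6, 47.6 and 50.7 in RUSKD on day 5. By day 7 the values were 31.7, 32.1, 32.5 and 30.2 in ctrl and 69.5, 75, 72.2 and 80.8 in RUSKD, so the RUSKD libraries were above ctrl on both days and the day difference was 0.75 (SE 0.079, adjusted p = 1.04e-05).

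In the whole list of 29 p53 target and apoptosis genes, 9 had a positive and 5 a negative day difference (48.3%, against 29.8% of all genes). The counts were 7 and 7 with length taken out, 12 and 1 with TPM as deposited and 9 and 2 under quantile normalization. *Bcl2l11* was the only reversal. *Tnfrsf1a*, the TNF receptor with a death domain, was higher on both days and more so on day 7 (0.72 and 1.44), as were the p53 targets *Zmat3* (0.24 and 0.94) and *Sesn1* (0.15 and 0.50). *Bak1*, a pore former of the mitochondrial membrane, was higher on both days with a smaller effect on day 7 (0.81 and 0.48). Its day difference was not called with TPM as deposited (limma, adjusted p = 0.183).

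Another gene that reversed upward was of low level. *Nlrc5*, a regulator of MHC class I genes, stood at 4.37, 5.12, 4.35 and 4.27 in ctrl and at 2.97, 2.76, 2.56 and 3.34 in RUSKD on day 5. Ctrl libraries of day 7 stood at 3.8, 2.95, 4.33 and 2.81, and RUSKD libraries at 5.75, 6.73, 7.19 and 6.24. The order turned without overlap, and the day difference was 1.52 (SE 0.18, adjusted p = 3.3e-05). In the list of 30 interferon and antigen presentation genes, 8 had a negative and 4 a positive day difference (40.0%, against 29.8% of all genes). With TPM as deposited 4 were negative and 6 positive. *Bst2*, tetherin, was lower on both days (−0.48 and −1.39), *Stat2* was higher on both (0.36 and 0.99), and *Psmb10*, an immunoproteasome subunit, went from higher to lower (0.52 to −0.35).

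Zinc finger genes with a Zfp symbol, many of them KRAB repressors, filled several places among the largest upward reversals (*Zfp960*, *Zfp975*, *Zfp97* and *Zfp457*), and the whole class was counted for that reason after its values had been seen. Of 372 tested, 138 had a positive and 9 a negative day difference (39.5%, against 29.8% of all genes). From lower to higher 25 reversed, and none reversed the other way. The median effect was −0.11 on day 5 and 0.19 on day 7. *Zfp960* stood at 3.81, 4.7, 3.05 and 3.42 in ctrl and at 2.33, 1.9, 2.37 and 2.87 in RUSKD on day 5, and at 2.26, 2.46, 2.43 and 2.39 in ctrl and 4.59, 4.52, 4.3 and 4.77 in RUSKD on day 7. The groups were apart on both days, and the day difference was 1.54 (SE 0.18, adjusted p = 2.49e-05). *Zfp970* was higher on day 7 only (1.68). In TPM as deposited 212 were positive and 6 negative with 42 reversals, with length taken out 108 were positive and 10 negative with 20, under quantile normalization 125 and 12 with 9, and leaving out single libraries gave from 16 reversals (without RUSKD replicate 3 of day 5) to 38 (without RUSKD replicate 4). These genes are near-identical paralogues in part, and reads shared between them are uncertain.

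Among genes of neurons and synapses the called day differences were mostly positive, while many genes had no called one. Over all genes 15.2% were positive and 14.6% negative. The share called in either direction was 33.3% for cortical layer factors and 37.5% for the GABA list, near the 29.8% of all genes, and 45.8% for presynaptic, 46.4% for axon guidance, 52.0% for postsynaptic and 59.1% for ion channel genes. Of 24 presynaptic genes 11 had a positive and none a negative day difference, 2 reversed, and the median effect went from −0.07 to 0.46. Of 25 postsynaptic and glutamate receptor genes 12 were positive and 1 negative, with medians of −0.10 and 0.33. Of 22 ion channel genes 12 were positive and 1 negative, with medians of −0.31 and 0.18. Of 24 genes of GABA receptors and the interneuron lineage 9 were positive and none negative, with medians of −0.26 and 0.14. Of 28 axon guidance genes 12 were positive and 1 negative, and of 15 cortical layer factors 5 were positive and none negative. TPM as deposited gave 17 positive presynaptic genes and 6 reversals from lower to higher in that list, and reversals so directed numbered 5 rather than 2 among postsynaptic genes and 4 rather than 1 in axon guidance, where there were also 4 without RUSKD replicate 4 of day 5.

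*Unc13a*, a vesicle priming factor, stood at 5.24, 5.0, 5.72 and 5.7 scaled TPM in ctrl and at 4.0, 3.34, 3.46 and 3.91 in RUSKD on day 5. Values on day 7 were 7.6, 7.34, 6.68 and 6.54 in ctrl and 7.36, 10.5, 10.8 and 10.2 in RUSKD. The groups were apart on day 5 and overlapped on day 7 through RUSKD replicate 1 (day difference 0.99, SE 0.16, adjusted p = 0.000268). Its partner in the release machinery, the SNARE *Snap25*, was higher on day 7 only (0.59). *Syn1*, a vesicle phosphoprotein, was also higher on day 7 only (0.46).

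*Grm5*, a metabotropic glutamate receptor, stood at 16.2, 15.7, 15.8 and 14.3 in ctrl and at 8.21, 6.68, 6.65 and 9.8 in RUSKD on day 5, and at 3.59, 4.18, 4.77 and 4.45 in ctrl and 5.65, 5.43, 5.0 and 4.95 in RUSKD on day 7. RUSKD lay well below ctrl on day 5 and just above it on day 7 (day difference 1.30, SE 0.16, adjusted p = 4.58e-05). The AMPA receptor gene *Gria1* went from −0.29 to 0.23, *Gria3* was higher on day 7 only (0.87), and so was *Camk2b*, a kinase subunit of the postsynaptic density (0.62). Its partner subunit *Camk2a* fell by 1.13 on day 5 and by 1.27 on day 7, with no called day difference (−0.14, adjusted p = 0.37). *Grin3a*, an NMDA receptor subunit of young neurons, was the exception with a negative day difference (−0.33 and −0.95).

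*Gad1*, which makes GABA, stood at 30.9, 24.4, 26.9 and 28.1 in ctrl and at 22.2, 19.9, 23.4 and 21.4 in RUSKD on day 5, and at 42.6, 42.6, 43.1 and 47.2 in ctrl and 55.8, 48.6, 49.8 and 55.3 in RUSKD on day 7. The order turned with no overlap on either day, though the effects of −0.34 and 0.25 were small. *Dlx1*, a homeobox factor of interneurons, went from −0.26 to 0.21, and *Gabbr1* was higher on both days (0.22 and 0.67). Among ion channels, *Kcnc1*, a fast potassium channel, went from −0.31 to 0.31, while *Kcna2*, another potassium channel, was higher on both days (0.68 and 1.76). *Gabrb1* stayed lower on both days (−0.96 and −1.11).

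*Pou3f2*, an upper layer and neurogenic factor, went from −0.42 to 0.19, and *Myt1l*, a neuronal repressor of other fates, from −0.45 to 0.44. *Robo2*, a receptor for Slit, went from −0.51 to 0.29, and its fellow guidance receptors *Plxna1* (0.68) and *Ephb2* (0.71) were higher on day 7 only. In 28 genes of the young neuron cytoskeleton 13 had a positive and 3 a negative day difference. *Crmp1* went from −0.38 to 0.21 and *Dcx*, doublecortin, was lower on day 5 only (−0.50), while *Stmn2*, a microtubule-destabilizing protein of growth cones, went the other way (0.58 to −0.16). *Tubb3* (0.14, adjusted p = 0.467) and *Map2* (0.21, adjusted p = 0.298) had no called day difference. Of 15 proneural and intermediate progenitor factors 4 were positive and 1 negative (33.3%, near the 29.8% of all genes), or 2 and 2 with length taken out. *Neurog2* was lower on day 7 only (−1.30), a day difference with an adjusted p of 0.0307 that 11 of 29 settings lost, and *Neurod1* was not called (−0.86, adjusted p = 0.0507) but was so in 11 of 29 settings.

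Median transcript lengths in these lists were 3426 nucleotides for presynaptic, 4500 for postsynaptic, 5422 for ion channel, 2604 for GABA, 4495 for axon guidance and 3422 for cortical layer genes. With length taken out, 11 presynaptic genes were positive and none negative, and the median day difference was 0.29 in place of 0.37. Of the postsynaptic genes 8 were then positive and 3 negative (median 0.15 in place of 0.35), of the ion channels 9 and 1 (0.39 in place of 0.54) and of the GABA list 8 and 2 (0.28 in place of 0.35). Axon guidance had 8 positive and 4 negative (0.14 in place of 0.28), cortical layer factors 2 and 1 (0.22 in place of 0.35) and the young neuron cytoskeleton 9 and 3 (0.19 in place of 0.22). The day 5 medians of presynaptic genes, cortical layer factors and the cytoskeleton, negative in the fit reported, came to 0, 0.03 and 0.02 with length taken out. *Rest*, the repressor of neuronal genes in other cells, was itself higher on both days (0.32 and 0.73), and its day difference of 0.42 was lost with length taken out.

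Of 19 neuropeptide and granin genes none had a positive and 5 a negative one, 26.3% against 29.8% of all genes and so near that share, and of the 11 neuropeptides proper 2 were negative. In TPM as deposited 1 gene was positive. *Npvf*, the precursor of RFamide-related peptides, stood at 2.89, 4.05, 3.3 and 2.98 in ctrl and at 2.38, 2.62, 2.35 and 2.6 in RUSKD on day 5. On day 7 it stood at 18.8, 20.4, 18.8 and 20.5 in ctrl and at 1.23, 1.49, 1.0 and 1.28 in RUSKD. RUSKD lay below ctrl on both days, narrowly on day 5, and the day difference of −3.49 (SE 0.16, adjusted p = 2.37e-08) was the most negative among the growing effects that the naming rule covers. *Scg3*, a granin of secretory granules, reversed from 0.24 to −0.27, and *Pcsk2*, a convertase that cuts prohormones, was lower on day 7 only (−0.89).

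**Figure D5:**
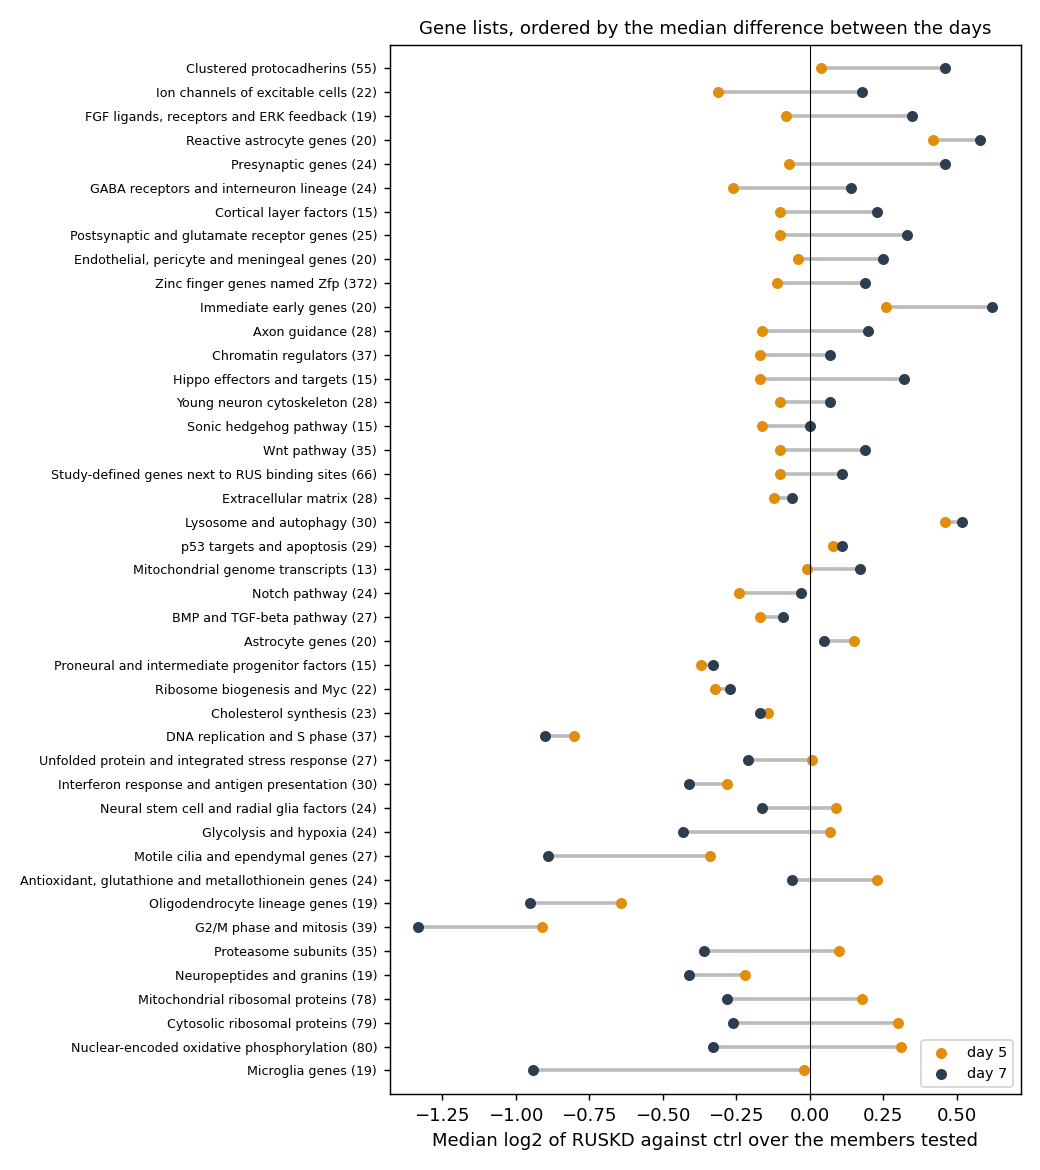
Median knockdown effect (log2 ratio of RUSKD to ctrl) of each of the 43 gene lists on day 5 and on day 7, joined by a line for each list. Ribosomal, respiratory and proteasome lists pass from right of 0 to left of it, synaptic and ion channel lists from left to right, and cell cycle lists stay left of 0 on both days.

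Adhesion and chromatin genes also had positive day differences. The clustered protocadherins, whose combinations give neurons a surface identity, had a positive day difference in 30 of 55 genes and a negative one in none. A positive day difference was called for 21 of 22 genes of the gamma cluster (95.5%), 7 of 21 of the beta (33.3%) and 2 of 12 of the alpha (16.7%). Over all genes 15.2% were positive, so the alpha cluster lay near that share and most calls came from the gamma cluster. The median effect of the gamma genes was 0.27 on day 5 and 1.23 on day 7. *Pcdhga11* stood at 11.8, 10.7, 12 and 10.8 in ctrl and at 13.9, 14.2, 13.5 and 17.2 in RUSKD on day 5, and at 9.12, 8.65, 8.32 and 8.58 in ctrl and 24.0, 24.7, 25.3 and 25.9 in RUSKD on day 7. RUSKD was above ctrl on both days and the gap was wider on day 7 (day difference 1.15, SE 0.10, adjusted p = 2.75e-06). Genes of the alpha and of the gamma cluster share constant exons, so their values are not independent. The 4 reversals in the list, from lower to higher, fell to none without RUSKD replicate 2 of day 5 and to 1 with length taken out or under quantile normalization. With length taken out 26 genes were positive.

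Of 37 chromatin regulators 18 had a positive and none a negative day difference. Reversals from lower to higher numbered 2 in the list, 4 with TPM as deposited and 5 without RUSKD replicate 4 of day 5. *Cbx7*, a Polycomb reader, was higher on both days and more so on day 7 (0.47 and 1.58), as was *Ezh1*, a histone methyltransferase (0.77 and 1.38). *Tet3*, a DNA demethylase, reversed from −0.35 to 0.28, and *Smarcc1*, a core BAF subunit, was lower on day 5 only (−0.34). *Arid1b*, another BAF subunit, was called higher on day 7 only (0.36), and that day difference was lost with length taken out (0.03, adjusted p = 0.792). Of the whole list, 13 were positive and 2 negative with length taken out.

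Lists of FGF signalling, Hippo signalling and astrocyte reactivity held more positive than negative day differences. Of 19 genes of FGF ligands, receptors and ERK feedback 12 had a positive and 1 a negative day difference, with medians of −0.08 and 0.35. On day 5 RUSKD was called higher for 4 and lower for 6 of them, and on day 7 for 11 and 3. Without RUSKD replicate 4 of day 5, 4 were higher and 3 lower on day 5. *Fgf2*, the factor also supplied in the medium, stood at 19.3, 18.9, 19.4 and 17.8 scaled TPM in ctrl and at 30, 29.2, 28.9 and 37.5 in RUSKD on day 5. The day 7 libraries gave 6.91, 6.4, 6.76 and 6.09 in ctrl and 23.7, 23.6, 23.0 and 25 in RUSKD. RUSKD was above ctrl on both days, and the effects of 0.72 and 1.85 differed by 1.13 (SE 0.10, adjusted p = 4.24e-06). *Spred2*, an inhibitor of the ERK pathway, and *Etv5*, an ERK-driven factor, were higher on day 7 only (both 0.70), and *Dusp6*, the ERK phosphatase, was lower on day 7 only (−0.48). An exon of *Nudt6* overlaps *Fgf2* on the opposite strand.

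Of 15 Hippo effectors and targets 8 were positive and 3 negative, with 4 called higher and 8 lower on day 5 and 8 and 6 on day 7. Only 1 was negative with TPM as deposited, and 3 rather than 1 reversed from lower to higher, as without RUSKD replicate 4 of day 5. *Yap1*, the coactivator that Hippo signalling restrains, was higher on both days and more so on day 7 (0.51 and 1.04), *Tead1*, its DNA-binding partner, reversed from −0.34 to 0.45, and *Axl*, a receptor kinase and YAP target, had 0.63 and 1.30. *Ccn5*, a matricellular protein, went the other way, at 9.98, 8.7, 8.55 and 11.8 in ctrl and 3.95, 3.76, 2.41 and 3.04 in RUSKD on day 5. By day 7 the values were 51.1, 50.5, 51.1 and 45.7 in ctrl and 4.18, 4.5, 3.93 and 3.53 in RUSKD. RUSKD was below ctrl on both days, and the day difference was −2.04 (SE 0.19, adjusted p = 5.26e-06).

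Of 20 immediate early genes 7 had a positive and 1 a negative day difference (40.0%, against 29.8% of all genes). Their median effects were 0.26 on day 5 and 0.62 on day 7. *Fos* was higher on both days (0.37 and 1.25), and *Fosl2* (1.23), *Egr1* (0.73) and *Egr3* (1.85) were higher on day 7 only. Of 20 reactive astrocyte genes 10 were positive and 5 negative, with medians of 0.42 and 0.58, and 12 were called higher and 6 lower on day 7. The negative ones numbered 3 with TPM as deposited and without RUSKD replicate 1 of day 5, and 2 under quantile normalization. *Steap4*, a metalloreductase, stood at 6.03, 5.34, 5.19 and 5.34 in ctrl and 11.6, 10.4, 9.6 and 11.9 in RUSKD on day 5, and at 5.13, 4.35, 5.31 and 4.54 in ctrl and 30.5, 29.4, 28.3 and 29 in RUSKD on day 7. The effect was above the spread on both days and larger on day 7 (day difference 1.60, SE 0.11, adjusted p = 5.1e-07). *Serping1*, the C1 inhibitor (0.93 and 1.97), and *Osmr*, the oncostatin M receptor (0.42 and 1.05), followed. Among 20 general astrocyte genes 5 were positive and 6 negative, or 9 and 3 under quantile normalization. *Aqp4*, the astrocyte water channel, had effects of −0.02 and 0.00, and *Gfap* was higher on both days (0.59 and 0.34), with a day difference of −0.26 that was 0.01 under quantile normalization.

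The largest growing effect on the higher side, by the naming rule, was that of *Rnase1*, a secreted ribonuclease. It stood at 0.226, 0.202, 0.113 and 0.365 scaled TPM in ctrl and at 0.947, 1.27, 0.625 and 0.992 in RUSKD on day 5. Ctrl libraries of day 7 stood at 0.904, 1.13, 0.935 and 1.0, and RUSKD libraries at 33.5, 27.0, 32.0 and 34.0. The RUSKD libraries were above ctrl on both days, with effects of 1.72 and 4.86 and a day difference of 3.14 (SE 0.30, adjusted p = 5.32e-06). *Steap4*, given above, was next (day difference 1.60). It was followed by *Adamts2*, a procollagen protease (0.77 and 2.35), *Lrrc75b* (0.84 and 2.41) and *Plin4*, a lipid droplet protein (0.58 and 2.13). On the lower side *Npvf* and *Ccn5*, given above, were followed by *Dapl1* (−0.99 and −2.76), *Gstm6* (−0.38 and −2.08) and *Ch25h*, cholesterol 25-hydroxylase (−1.01 and −2.61).

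Cell division genes were lower in RUSKD on both days, and many of those of mitosis fell further on day 7. Of 39 genes of G2/M and mitosis all 39 were called lower on each day, 23 had a negative day difference and none a positive one, and the median effect went from −0.91 to −1.33. For mitosis genes 14 were negative and 1 positive with TPM as deposited, and the median day difference was −0.22 in place of −0.39. *Ccnb2*, a mitotic cyclin, stood at 38.8, 44.4, 45.2 and 45.1 in ctrl and at 27.8, 23.7, 23.2 and 24.1 in RUSKD on day 5. Values on day 7 were 32.1, 30.4, 30.4 and 32.0 in ctrl and 8.21, 9.22, 9.97 and 7.08 in RUSKD. RUSKD was below ctrl on both days, with effects of −0.81 and −1.85 (day difference −1.05, SE 0.13, adjusted p = 3.42e-05). The kinase *Aurka* had −0.74 and −1.54 and the mitotic kinesin *Kif20a* −0.81 and −1.61.

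Of 37 genes of DNA replication and S phase 35 were called lower on day 5 and 36 on day 7, but 10 had a negative and 2 a positive day difference (32.4%, near the 29.8% of all genes), or 5 and 5 with TPM as deposited, and the median effect was −0.80 on day 5 and −0.90 on day 7. Of 14 helicase and pre-replication genes 1 was positive and 1 negative, while 4 of 5 genes of nucleotide synthesis fell further, as *Rrm1*, the large subunit of ribonucleotide reductase, did (−0.63 and −0.99). *Pcna*, the sliding clamp, had −0.50 and −0.90, and *Mki67*, the marker of cycling cells, had no called day difference (−1.16 and −1.09, adjusted p = 0.719). The median day difference of this list was −0.08, and 0.09 with TPM as deposited.

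Markers of microglia and of ciliated ependymal cells were lower in RUSKD on day 7. Summed over 19 genes, the microglial list stood at 368 to 397 scaled TPM in ctrl and 338 to 431 in RUSKD on day 5, with overlap, and at 808 to 877 and 384 to 468 on day 7, with none. Of these 19 genes 16 had a negative and none a positive day difference, 3 reversed from higher to lower, and the median effect was −0.02 on day 5 and −0.94 on day 7. The reversals numbered 1 without ctrl replicate 3 of day 5 and 5 without RUSKD replicate 4, and 1 with TPM as deposited, and with length taken out 13 genes were negative. *Fcer1g*, a signalling chain of Fc receptors, stood at 22.9, 24.6, 23.3 and 23.3 in ctrl and 28.3, 21.6, 25.7 and 20.4 in RUSKD on day 5, with overlap, and at 63.8, 60.5, 53.1 and 57.7 in ctrl and 24.3, 23.3, 24.2 and 20.1 in RUSKD on day 7, with none (day difference −1.37, SE 0.13, adjusted p = 5.4e-06).

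Of the defining microglial markers, *Cx3cr1*, the fractalkine receptor, had effects of −0.23 and −0.94 and a called day difference, *Tmem119* had −0.97 and −1.51 with an adjusted p of 0.0484 that 19 of 30 settings lost, and *P2ry12* was not called (−0.47, adjusted p = 0.174). In bulk cultures fewer cells of a type and less RNA per cell cannot be told apart, and the part of these cells in other day differences, such as that of *Tlr1*, was not tested. Of the endothelial and meningeal markers, *Cdh5*, *Cldn5* and *Lum* were under the filter, *Pecam1* stood at 0.113 to 0.376 and *Dcn* at 0.211 to 0.515 scaled TPM, while *Kdr*, a receptor for VEGF, stood at 1.97 to 5.94 and the collagen *Col1a1* at 0.449 to 4.69. Of 20 endothelial, pericyte and meningeal genes 4 were positive, all mural, and 1 negative (25%, against 29.8% of all genes), *Kdr* (−0.91 and −1.31, day difference −0.40, adjusted p = 0.0302), whose call 7 of 30 settings lost. With length taken out the median day difference of the list was 0.22 in place of 0.34. *Pdgfrb*, a pericyte receptor, was higher on both days and more so on day 7 (0.32 and 1.30).

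The 27 motile cilia genes, which mark ependymal cells, summed to 925 to 1070 scaled TPM in ctrl and 829 to 1030 in RUSKD on day 5, with overlap, and to 1830 to 1990 and 1070 to 1270 on day 7, with none. A negative day difference was called for 13 genes and a positive one for none, with medians of −0.34 and −0.89, against 8 and 1 with TPM as deposited and 17 and 0 with length taken out, and without RUSKD replicate 4 of day 5 the positive ones numbered 3. *Pifo*, a gene of ciliary assembly, stood at 31.7, 34.0, 33.0 and 31.7 in ctrl and 27.1, 25.3, 25.5 and 23.6 in RUSKD on day 5, and at 69.0, 64.7, 69.5 and 62.9 in ctrl and 30.3, 30.8, 30.2 and 27.6 in RUSKD on day 7. RUSKD lay below ctrl on both days, further on day 7 (day difference −0.80, SE 0.073, adjusted p = 3.95e-06). *Foxj1*, the master factor of motile cilia, was lower on day 7 only (−0.63), with an adjusted p of 0.0233 for the day difference that 5 of 30 settings lost. Of 19 oligodendrocyte lineage genes 2 were positive and 3 negative (26.3%, near the 29.8% of all genes), the latter 2 to 7 with single libraries left out (7 without RUSKD replicate 1 of day 7 and 6 without RUSKD replicate 4 of day 5), and 7 of the 10 precursor genes were called lower on day 5 and 9 on day 7. *Pdgfra*, the precursor receptor, had −1.14 and −0.84 with no called day difference, and *Enpp6*, a gene of newly formed oligodendrocytes, was lower on day 7 only (−2.57). The 2 positive genes were *Cspg4* (day difference 0.69) and *Mog* (1.31), each called in every setting in which it was tested. The list held 1 reversal, from lower to higher, and none under quantile normalization or 75th percentile scaling.

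Lists of other signalling pathways and of the matrix held day differences of both signs. Of 35 Wnt genes 9 were positive and 4 negative (37.1%, against 29.8% of all genes), or 5 and 5 with length taken out and 14 and 1 with TPM as deposited (2 negative without ctrl replicate 1 of day 5), and the ligand *Wnt7b* (0.40 and 1.22) and the inhibitor *Dkk2* (−1.59 and −2.94) moved apart. Of 27 BMP and TGF-beta genes 5 were positive and 3 negative (29.6%, near the share of all genes), or 3 and 6 with length taken out and 8 and 2 with TPM as deposited, and without RUSKD replicate 4 of day 5 the positive ones numbered 8. Of 15 Sonic hedgehog genes 6 were positive and 2 negative (53.3%, against 29.8% of all genes), with 3 positive without ctrl replicate 1 of day 7. The ligand *Shh* fell by 0.96 and 1.93, and the transcription factor *Gli2* was higher on day 7 only (1.24). Of 28 extracellular matrix genes 2 were positive and 4 negative (21.4%, below the share of all genes), or 6 and 2 with TPM as deposited, with *Col12a1* reversing from −0.33 to 0.59. Of 30 lysosome and autophagy genes 8 were positive and 6 negative (46.7%, against 29.8% of all genes), and 23 were called higher on each day. With TPM as deposited 17 were positive and 4 negative, and under quantile normalization 18 and 4. *Ctsd*, a lysosomal protease, was higher on day 5 only (0.46).

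The study placed a set of genes next to RUS binding sites and kept those robustly expressed in the differentiating cells. This list was thus not drawn up apart from these data, though the study states no choice by direction. Its 66 genes held 20 positive and 7 negative day differences and no reversal. Its median effect was −0.10 on day 5 and 0.11 on day 7, and 40.9% of its genes had a called day difference, against 29.8% of all genes. The list held 28 positive and 6 negative with TPM as deposited, and with length taken out 13 and 9 with 1 reversal and a median day difference of 0.10 in place of 0.19. *F13a1*, a transglutaminase chain, had −0.77 and −2.94, *Mipep*, a mitochondrial peptidase, was lower on day 7 only (−0.86), and *App*, the amyloid precursor, was higher on both days (0.18 and 0.67). *Slitrk3*, a synaptic adhesion gene, was lower on day 5 only (−0.39, day difference 0.54, adjusted p = 0.0275), and 9 of 30 settings lost that call, while *Bche*, butyrylcholinesterase, grew from 0.67 to 1.64.

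Genes called on 1 day only included some large effects. *Megf10*, a phagocytic receptor of astrocytes, stood at 17.1, 17.3, 17.6 and 16.1 in ctrl and at 15.5, 18.2, 17.4 and 24.8 in RUSKD on day 5. On day 7 it stood at 8.01, 8.71, 8.84 and 8.58 in ctrl and at 34.7, 37.3, 36.6 and 36.0 in RUSKD. The groups overlapped on day 5 and did not on day 7, RUSKD lying above ctrl (effects 0.14 and 2.07, day difference 1.94, SE 0.14, adjusted p = 6.75e-07). *Gsta2*, a glutathione transferase (1.89), and *Pram1* (1.06) were also higher, and *H4c1*, a histone gene (−2.29), and the chemokine *Cxcl10* (−1.30) lower, on day 7 only. *Mir29c*, *n-R5s15* and *n-R5s29*, small RNAs that polyA libraries hardly capture, and the pseudogenes *Tma7-ps*, *Eif1-ps1* and *Rpl36-ps12* also fell under the naming rule, and their values are uncertain.

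*Ripply1*, a transcriptional corepressor, showed the opposite timing. It stood at 6.98, 5.54, 6.07 and 6.6 in ctrl and at 2.26, 2.45, 0.844 and 1.74 in RUSKD on day 5, and at 25.3, 29.5, 31.6 and 28.9 in ctrl and 23.8, 26.5, 26.2 and 27.1 in RUSKD on day 7. RUSKD was far below ctrl on day 5 and overlapped it on day 7 (effects −1.83 and −0.15, day difference 1.67, SE 0.31, adjusted p = 0.000946). *Rnf112*, a neuronal ring finger protein, was also lower on day 5 only (−1.08), and *Htr5b*, a serotonin receptor (1.01), *Plac9b* (1.43) and *Ifi47*, an interferon-induced GTPase (0.90), were higher on day 5 only.

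Effects that shrank were fewer (299 genes, against 1313 that grew). *Kif1a*, the motor of synaptic vesicle precursors, stood at 114, 98.6, 103 and 105 in ctrl and at 34.4, 42.2, 39.5 and 49.1 in RUSKD on day 5. The day 7 libraries gave 100, 103, 104 and 97.8 in ctrl and 73.3, 80.7, 82.4 and 85.9 in RUSKD. RUSKD was below ctrl on both days by a smaller margin on day 7 (effects −1.35 and −0.33, day difference 1.03, SE 0.12, adjusted p = 2.23e-05). *Myo5a*, an actin motor (−1.45 and −0.61), *Ampd3*, an AMP deaminase (−1.28 and −0.39), and *Vwa5b1* (−1.65 and −0.60) did likewise. On the higher side were *Serpinb1a*, a protease inhibitor (2.38 and 1.20), *Erp29*, a chaperone of the endoplasmic reticulum (0.87 and 0.22), *Cnp*, a protein of myelin (1.20 and 0.75), and *Pdgfd*, a growth factor (0.90 and 0.26). The day difference of *Cnp* was not called under quantile normalization (limma, adjusted p = 0.0873).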

How the data were processed

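Neural stem cells were sequenced as polyA RNA on an Illumina NextSeq 500. The authors aligned reads with STAR to mm10 and quantified them with RSEM, versions not given in the sources used here, and deposited TPM per library in 1 table per day. Log2 fold changes, p-values and related columns of the authors' DESeq2 comparison in these tables were not used. The 16 TPM columns were matched to the samples through the labels, and lines of both tables by symbol and position; 106 lines did not match and were left out, holding 0.313 to 0.630% of TPM.

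TPM were divided by median-ratio factors from the 13614 genes that reached 1 TPM in every library. Genes averaging 0.1 TPM or more were fitted on log2(scaled TPM + 0.1) with limma 3.58.1 (lmFit, then eBayes with a trend, R 4.3.3), with 1 coefficient per group, and the contrast was the RUSKD effect on day 7 minus that on day 5. P-values were two-sided and adjusted by Benjamini-Hochberg over 23789 genes, with a threshold of 0.05. Fold changes on this scale understate the change of low genes. A reversal needed a called day difference and calls of opposite sign on both days. TPM keeps no read depth, so no counting interval is given.

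The members and the 43 gene lists were chosen with earlier results of these data known, and a list is described by its counts and median, with no test of the list. Genes were named by rule: a fixed list; the 8 largest reversals in each direction; the 5 largest in each direction among effects that grew, that shrank, or that were called on day 5 or day 7 only, all averaging 1 TPM or more and with no gene model symbol; and from each list the up to 4 members with the smallest adjusted p and up to 2 of known role. Genes with printed promoter windows and *Dll4* fall outside this rule. Some genes that the rule names are not reported here. Gene positions are those of a GRCm38 annotation, and promoter windows are from RefSeq (GRCm38.p6); where several starts were given, the first with the motif was taken.

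Data for 23789 genes were also simulated, with normal noise of each gene's own spread. Only 100 genes of each size, averaging 1 TPM or more, were given a day difference, split over both days in opposite directions. Of these, 33% with a day difference of 0.5 and 81% with 1 were recovered, and 4 unchanged genes were called. In the data 29.8% of genes were called, so the adjusted threshold is looser there and these figures do not carry over. Samples with the same replicate number did not deviate together (correlations from −0.099 to 0.033), so no block was used. A total of 30 alternative settings were tried: other pseudocounts, filters, scalings and variance models, the replicate block, each library left out, and, added after the data were seen, removal of transcript length and GC trends (natural splines with 5 degrees of freedom).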

Additional observations from a re-analysis of the deposited data

Results flagged for a closer look

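The knockdown effect differed between the days by limma's test of the difference itself for 7090 genes, with 497 reversals from higher to lower and 312 from lower to higher. Among the named reversals the day differences on the log2 scale were −2.48 for *Tlr1*, −2.18 for *Hs3st6*, −2.1 for *Cd34*, −1.8 for *Grap*, −1.78 for *Col9a1*, −1.75 for *Inmt*, −1.74 for *Igfbp2* and −1.73 for *Hdc*. In the other direction they were 1.54 for *Zfp960*, 1.52 for *Nlrc5*, 1.5 for *Bmf*, 1.46 for *Notch2*, 1.43 for *Zfp975*, 1.38 for *Zfp97* and 1.37 for *Zfp457*.

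In 11 of 124 groups of 4 libraries, over the 31 genes given library by library, 1 library lay far from the other 3 by Dixon's criterion, which chance meets in about 1 group of 20. RUSKD replicate 4 of day 5 was that library for *Cox7c* (572 scaled TPM), *Psmb6* (386), *Mrpl24* (117) and *Fgf2* (37.5), and in the first 3 it lay nearer to ctrl than the rest of its group. RUSKD replicate 4 of day 7 was apart for *Psmb6* (242), and RUSKD replicate 1 of day 7 for *Unc13a* (7.36). Ctrl replicate 4 of day 7 was apart for *Id3* (187), *Gad1* (47.2) and *Ccn5* (45.7), ctrl replicate 2 of day 5 for *Nlrc5* (5.12) and ctrl replicate 1 of day 5 for *Ccnb2* (38.8). What sets these libraries apart was not tested.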

How the results depend on the processing

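With TPM as deposited, 5700 genes had a positive and 2053 a negative day difference, and the reversals were 186 from higher to lower and 674 from lower to higher. With 75th percentile scaling 296 reversed from higher to lower, and with quantile normalization 197 effects shrank. Library weights (arrayWeights) gave 1294 reversals, 564 of them from lower to higher, and 621 shrinking effects, and removal of length and GC trends gave 462 shrinking effects. When a call also needed a 1.5-fold difference, 1677 genes were positive, 1487 negative, 497 reversed (264 from higher to lower), 428 grew, 29 shrank, and 1510 and 567 were called on day 7 or day 5 only. Leaving out each library in turn gave 618 (without ctrl replicate 1 of day 5) to 1354 reversals (without RUSKD replicate 4 of day 5), with 384 to 772 from higher to lower and 234 to 582 from lower to higher between the same libraries, and 209 (without ctrl replicate 2 of day 7) to 583 shrinking effects (without RUSKD replicate 4 of day 5). The causes of these shifts were not tested.

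A replicate block within each day, for numbers that do not pair the samples, gave 512 reversals (310 from higher to lower, 202 from lower to higher), 865 growing and 145 shrinking effects.

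Of 239 named genes with a called day difference, 202 lost the call under no setting in which they were tested (28 to 30 settings each). The day difference changed sign under quantile normalization for *Gfap* (0.01), *Mlc1* (0.04), *Rps6* (0.01) and *Rplp0* (0). List medians changed sign with TPM as deposited for S phase (0.09), stem cell factors (0.01), the stress response (0.04), ribosome biogenesis (0.14), cholesterol synthesis (0.13) and proneural factors (0.15). They did so with length removed for extracellular matrix (−0.09), BMP (−0.01) and proneural factors (0.05), and with length and GC removed for extracellular matrix (−0.08) and mitochondrial genome transcripts (−0.01), where Notch came to 0. Medians within 0.03 of 0 in the fit reported, those of proneural, ribosome biogenesis and astrocyte genes, also crossed 0 under other settings. TPM keeps no depth, so counting error cannot be given. Simulated day differences of 0.5 were recovered for 33% of the genes given one, in a simulation where far fewer genes changed than were called here.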
